A study of Mus musculus with 5 samples.

Results

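Contractile vascular smooth muscle cells of the mouse temporomandibular joint (TMJ) disc, a plate of fibrocartilage inside the jaw joint, were read in 5 libraries of single-cell RNA sequencing. They were chosen by measured values. A cell was a member if its mitochondrial genes held at most 30% of its unique molecular identifiers (UMIs, each counted as 1 captured transcript) and if it had at most 12000 UMIs. It had at least 2 UMIs of Rgs5 and Notch3 together, at least 2 of Acta2, and no UMI of the endothelial gene Cdh5 or the leukocyte gene Tyrobp. Its Myh11 level was 1000 or more per 1000000 of its UMIs (counts per 1000000 UMIs, here CPM). By this rule 318 of 51948 barcodes (0.612%) were members. Because the rule used measured values, the levels of its own genes are given as a description, with no test. All mice were C57BL/6 and were labelled wild type. Normal discs came from 4 ages, 3 d (the newborn library), 3 w (juvenile), 16 w (adult) and 78 w (aged), of both sexes at 3 d and male at the later ages. Injured discs came from mice aged 7 weeks, in which the anterior band of the right disc had been injured with a fine needle at 5 weeks of age, 2 weeks before collection. The label calls this injury a pinch, and the methods describe needle punctures. The methods describe this operation for reporter mice (Myh11-CreER+; Tm fl/-), in which a Myh11-driven Cre marks smooth muscle cells, although the label of the library is wild type. An uninjured library of 7 weeks was not part of the analysis, and how many animals were pooled for a library is not given in the sources used here. With 1 library per condition no difference has a replicate check, so values are given with exact 95% intervals that cover counting error only. The libraries held 125130270 in the newborn, 125427849 in the juvenile, 88998394 in the adult, 105309834 in the aged and 31585993 in the injured library as total UMIs, over 15169, 9401, 8786, 10125 and 8467 barcodes.

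Mural cells wrap the endothelial tube of a vessel. Smooth muscle cells of arteries and arterioles lie around the vessel as contractile rings, while pericytes of capillaries carry less of the contractile machinery. In a smooth muscle cell, calcium and calmodulin activate myosin light chain kinase (Mylk), which phosphorylates the regulatory light chain (Myl9) so that smooth muscle myosin (Myh11) pulls on actin filaments (Acta2, Actg2), and myosin phosphatase reverses this step. Serum response factor and myocardin switch many of these genes on through a short promoter sequence, the CArG box, and Notch3, a receptor activated by Jag1 on neighbouring cells, keeps arterial smooth muscle differentiated.

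Mural cells that passed the gates on Rgs5, Notch3, Cdh5, Tyrobp, mitochondrial share and total UMIs numbered 472 in the newborn, 208 in the juvenile, 189 in the adult, 241 in the aged and 150 in the injured library, 1260 in all. Members among them numbered 21 in the newborn, 65 in the juvenile, 89 in the adult, 127 in the aged and 16 in the injured library. Members made up 4.45% of newborn mural cells (exact interval 2.77 to 6.72), 31.2% of juvenile ones (25.02 to 38.02), 47.1% of adult ones (39.8 to 54.5), 52.7% of aged ones (46.2 to 59.1) and 10.7% of injured ones (6.22 to 16.7). The share was thus higher at each later normal age, with the 16 w and 78 w intervals overlapping, and the injured share lay below those of 3 w, 16 w and 78 w. With no upper limit on UMIs it was 3.30%, 25.5%, 43.5% and 35.6% in newborn, juvenile, adult and aged discs, so the order of 16 w and 78 w turned. Of all retained cells, members made up 0.173% in the newborn, 1.49% in the juvenile, 1.396% in the adult, 1.74% in the aged and 0.192% in the injured library. Fewer captured smooth muscle cells and less Myh11 per cell cannot be told apart in such shares. The injured library was also the shallowest, with a median of 2700 UMIs per member against 7052, 7218, 6585 and 6014 in the newborn to aged libraries.

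The members' summed UMIs came to 119436 in the newborn, 475634 in the juvenile, 600607 in the adult, 768165 in the aged and 44985 in the injured library. A level is given below in CPM of these sums, and a gene with 0 UMIs could still have had up to 3 counts, a level of 25.1, 6.31, 4.99, 3.91 and 66.7 in that order of libraries. The 3 d and injured sums are the smallest and carry the widest intervals. Libraries shared few barcodes. Between 96 and 138 barcodes of a library also occurred in another, and 4 of the 318 members had such a barcode. Sex differed along with condition. Over all retained cells, Xist, expressed from the inactive X chromosome of females, had a level in CPM of 852 in the newborn, 0.0879 in the juvenile, 0.369 in the adult, 0.124 in the aged and 658 in the injured library. The Y-linked gene Ddx3y had one of 30.6 in the newborn, 155 in the juvenile, 112 in the adult, 114 in the aged and 0 in the injured library. The members held 135, 0, 0, 0 and 18 UMIs of Xist and 2, 103, 142, 143 and 0 of Ddx3y in the same order, so Xist was read in the 3 d and injured members and was at 0 UMIs in the others. The injured library as a whole held 0 UMIs of Ddx3y and of Eif2s3y, another Y-linked gene, whereas the methods place the Myh11-CreER transgene on the Y and use males for tracing. Sex and condition therefore cannot be told apart for the injured library, and partly at 3 d.

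The members matched the label by genes that the rule had not used. The 24 contractile genes of the list other than Myh11 and Acta2 took a median of 3.99% in the newborn, 2.61% in the juvenile, 3.68% in the adult, 3.49% in the aged and 2.64% in the injured library. In mural cells under 1000 Myh11 CPM the medians were 0.499, 0.611, 0.804, 0.752 and 0.219%, and in stromal cells 0.157, 0.0923, 0.103, 0.105 and 0.127%, in the same order. In every library the first quartile of members lay above the median of the other mural cells, at 2.15, 2.11, 2.67, 2.34 and 2.203%. These genes come from the same cells as the rule's genes, so this is a description of the class.

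Myh11 (smooth muscle myosin heavy chain, ENSMUSG00000018830, chr16:14194535-14291372, minus strand of GRCm38) had no empty interval at the limit that the rule sets. The members closest to 1000 CPM had 1021, 1045, 1044, 1014 and 1088 in the 5 libraries, and the closest mural cells under it that also had 2 Acta2 UMIs, and so missed the rule by Myh11 alone, had 951, 882, 978, 985 and 927. From 1000 to 1200 CPM lay 4, 9, 4, 8 and 1 members, and from 800 to 1000 lay 6, 4, 6, 6 and 1 such mural cells. In Myh11 CPM, the median member had 1509 in the newborn, 2086 in the juvenile, 3703 in the adult, 3203 in the aged and 1948 in the injured library, and the highest had 5014, 4921, 11049.7, 10207 and 10638. In the plot of Myh11 over single mural cells, most 3 d and injured mural cells lie well under the limit, whereas at 16 w and 78 w a dense group lies above it.

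**Figure D1:**
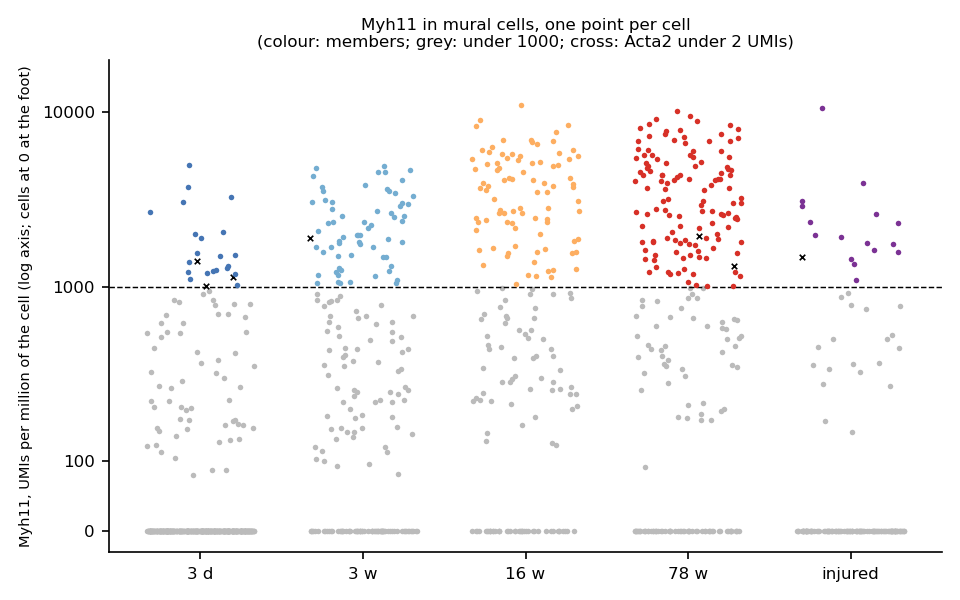
Myh11 UMIs per 1000000 UMIs of a cell (log axis) in each mural cell, 1 point per cell, by library, with members coloured, mural cells under the limit grey and cells with fewer than 2 Acta2 UMIs as crosses, and a dashed line at the limit of 1000 CPM. Members make up 21 of 472 mural cells at 3 d and 127 of 241 at 78 w.

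The contractile apparatus is the group that names the cells, and the levels of its genes in members are given first. Myh11 stood at 1733 in the newborn, 2412 in the juvenile, 3968 in the adult, 3990.0 in the aged and 2289.7 in the injured library, with intervals from 1505 to 1986 at 3 d to 3850.0 to 4134 at 78 w. Acta2 (ENSMUSG00000035783, chr19:34241090-34255590, minus strand), the actin of vascular smooth muscle, stood at 16528 in the newborn, 5157 in the juvenile, 8074 in the adult, 7209 in the aged and 5779.7 in the injured library. Tagln, an actin-binding protein of smooth muscle, stood at 12308 in the newborn, 11513 in the juvenile, 11220.3 in the adult, 11935 in the aged and 9603 in the injured library. Tagln was thus close to even over the libraries, while Acta2 was highest at 3 d and Myh11 highest at 16 w and 78 w. The light chain gene Myl9 stood at 9118 in the newborn, 3271 in the juvenile, 4597 in the adult, 4608 in the aged and 3068 in the injured library. Mylk, its kinase, stood at 1549 in the newborn, 1110.1 in the juvenile, 2068 in the adult, 1985 in the aged and 1312 in the injured library. Lmod1, which nucleates actin filaments, was at 368 in the newborn, 439 in the juvenile, 589 in the adult, 542 in the aged and 88.9 in the injured library. Like Acta2, Myl9 was highest at 3 d and lowest at 3 w among the normal ages, and Lmod1 was lowest in the injured library.

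Serum response factor acts on contractile genes through the CArG box, so promoters of 3 of the genes in which the box was found are shown. RefSeq promoter windows of GRCm38.p6, 250 bases before to 50 bases after each gene's start, were matched for 22 of the 26 listed contractile genes (26 windows), and both strands were searched for the CArG box. It was present in 5 windows of 4 genes (Ldb3, Myl6, Myl9 and Vcl), against 535 of all 32851 windows (1.63%). A match is a description of the letters and not of binding, and the window leaves out the introns and distant sites at which other boxes could lie. The 3 genes shown are Myl9, the light chain described above, Myl6, the light chain that accompanies it on the myosin head, and Vcl, which links actin to the membrane. Capitals mark the CArG box, whose first base lies 161, 50 and 227 bases before the start in Myl9 (chr2:156775214-156775513, plus strand), Myl6 (chr10:128492960-128493259, minus strand) and Vcl (chr14:20929148-20929447, plus strand), written 5′ to 3′ on the strand of the gene.
Myl9: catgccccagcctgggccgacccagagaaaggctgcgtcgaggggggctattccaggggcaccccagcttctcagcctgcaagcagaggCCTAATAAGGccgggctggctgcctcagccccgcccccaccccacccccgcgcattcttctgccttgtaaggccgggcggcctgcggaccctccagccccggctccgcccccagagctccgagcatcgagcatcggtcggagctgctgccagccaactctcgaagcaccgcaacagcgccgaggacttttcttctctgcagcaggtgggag
Myl6: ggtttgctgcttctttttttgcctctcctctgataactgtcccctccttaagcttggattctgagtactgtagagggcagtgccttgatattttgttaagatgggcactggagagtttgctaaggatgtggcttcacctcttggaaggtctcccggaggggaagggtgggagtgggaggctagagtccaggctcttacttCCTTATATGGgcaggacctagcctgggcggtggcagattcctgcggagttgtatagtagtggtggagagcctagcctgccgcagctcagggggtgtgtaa
Vcl: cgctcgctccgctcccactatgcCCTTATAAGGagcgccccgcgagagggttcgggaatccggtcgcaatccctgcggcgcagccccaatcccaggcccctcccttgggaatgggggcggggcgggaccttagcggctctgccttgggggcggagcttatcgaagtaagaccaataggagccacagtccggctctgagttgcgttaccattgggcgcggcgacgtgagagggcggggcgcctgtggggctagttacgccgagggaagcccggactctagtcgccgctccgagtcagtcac
The levels of Myl6 were 5007 in the newborn, 3509 in the juvenile, 4519 in the adult, 4421 in the aged and 4157 in the injured library, and those of Vcl 327 in the newborn, 212 in the juvenile, 301 in the adult, 318 in the aged and 222 in the injured library.

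Members were next set against the other mural cells of the same library, those with Myh11 under 1000 CPM, which numbered 448 in the newborn, 142 in the juvenile, 100 in the adult, 112 in the aged and 133 in the injured library. Because the rule split the cells by Myh11, all ratios of this contrast are a description. At least 2-fold higher in each of the 5 libraries were 140 of 7394 genes (1.89%), and at least 2-fold lower in each were 54 (0.73%). Of the contractile apparatus, 20 of 25 genes were higher in each library. A count under 3 on the lower side of a ratio was taken as 3. Against 3 counts in the other mural cells, 1 member UMI (8.37 CPM at 3 d and 22.2 in the injured library) already passed 2-fold. In these 2 libraries a gene of low level could thus be counted as higher on very few UMIs. Beside genes of the filaments, the leading genes included Sorbs2, Bcam, Itga8 and Kcnab1. Sorbs2, a scaffold at actin-based contacts, was 12.98, 13.3, 10.4, 10.7 and 8.96 times as high in members as in the other mural cells at 3 d, 3 w, 16 w, 78 w and in the injured library. Bcam, a laminin-binding adhesion receptor, was 10.3, 7.71, 7.85, 8.91 and 6.47 times as high, and Tpm2, a tropomyosin, 9.6999, 6.82, 5.84, 8.005 and 12.3 times. In these genes the difference was several-fold in every library. Cnn1, calponin, was so rare outside the members that levels are given, in CPM, with 527, 98.8, 266, 208 and 245 in members and 8.52, 10.6, 1.67, 2.71 and 7.204 in the other mural cells. Itga8, an integrin of smooth muscle, had levels of 75.4, 114, 137, 149.7 and 44.5 and 5.37, 6.34, 3.35, 6.76 and 3.602, and Kcnab1, a beta subunit of voltage-gated potassium channels, of 243, 86.2, 113, 125 and 66.7 and 7.58, 9.51, 11.7, 6.76 and 1.801. Xirp1, an actin-binding repeat protein of muscle, had levels of 66.98, 252, 117, 42.96 and 66.7 and 0, 5.28, 5.02, 5.41 and 5.403. In injured members Itga8 (44.5), Kcnab1 and Xirp1 (66.7 each) lay at or under the level of 3 counts. The rest of the 20 leading genes were Myh11, Map3k7cl, Nrip2, Perp, Susd5, Tagln, Rbpms2, Sh3bgr, Acta2, Fam81a, 2900026A02Rik, Myl9 and Ptp4a3.

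The other mural cells were higher in genes of matrix and of stromal cells. Dcn, decorin, was 18.8, 9.701, 5.84, 7.92 and 5.57 times as high in them as in members, in the order of libraries above. Ly6a, a surface protein used as a progenitor marker, had levels of 116, 51.8, 119, 636 and 629 CPM in the other mural cells and 25.1, 0, 3.33, 6.51 and 0 in members. Abi3bp, a matrix protein, had levels of 201, 73.9, 313, 611 and 499 and 25.1, 6.31, 56.6, 54.7 and 66.7, so each was several-fold lower in members of every library. Angptl1, Thbs4, Anxa8, Sbsn, Rgcc, Cd55 and Prg4 complete the 10 leading genes. Of the fibrillar collagen and synthetic list, 6 of 21 genes (Bgn, Col5a1, Col5a2, Col6a1, Col6a2 and Mgp) were at least 2-fold lower in members in each library and 0 were higher. Of the 17 stromal markers that were measured, Dcn, Pdgfra and Prg4 were lower in each. Mural cells with few or no Rgs5 UMIs and with stromal genes were among the cells set against the members. With the comparison limited to mural cells with at least 3 Rgs5 UMIs and 0 Pdgfra UMIs, a choice made after seeing the data, 93 of 5867 genes were higher in each library (87 of them among the 140) and 14 were lower. Of the higher, 17 were contractile genes.

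In other groups few genes passed 2-fold in every library between members and the other mural cells. Of the calcium and channel genes, 4 of 19 were higher in each library, among them Cacna1h (T-type calcium channel), Casq2 (calcium buffer of the reticulum) and Mrvi1 (a brake on calcium release). Of the smooth muscle transcription factors, 2 of 18 (Mef2c and Tbx2) were higher, and of the vasoactive receptor and cyclic nucleotide genes 1 of 16 (Pde3a, a phosphodiesterase). Of the Notch pathway 0 of 13 genes and of the pericyte genes 0 of 17 passed 2-fold in each library in either direction. In CPM, the Notch list summed to 1817, 3002, 3007, 2897 and 3801 in members and 1050, 2392, 1917, 1657 and 1389 in the other mural cells. The pericyte list summed to 5727, 11168, 9367, 9447 and 8180.5 against 6247, 17401, 15267, 13165 and 5252. It was thus lower in members at the normal ages only, and the Notch sum was higher in each library. Both lists hold a gene of the rule. Eln, the elastin gene, was higher and Ltbp4, a latent TGF-beta binding protein, lower, of 17 elastic fibre genes. Of 23 basement membrane genes, Col4a5, Itga8 and Lama5 were higher, and of 26 growth factor genes Fgf1 was higher and Igfbp6 and Pdgfra were lower. Of 18 progenitor genes Acta2 was higher and Cd44, Ly6a and Pdgfra were lower, of 28 immediate early genes Gadd45g was higher, and of 24 interferon response genes B2m and Ly6e were lower.

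**Figure D2:**
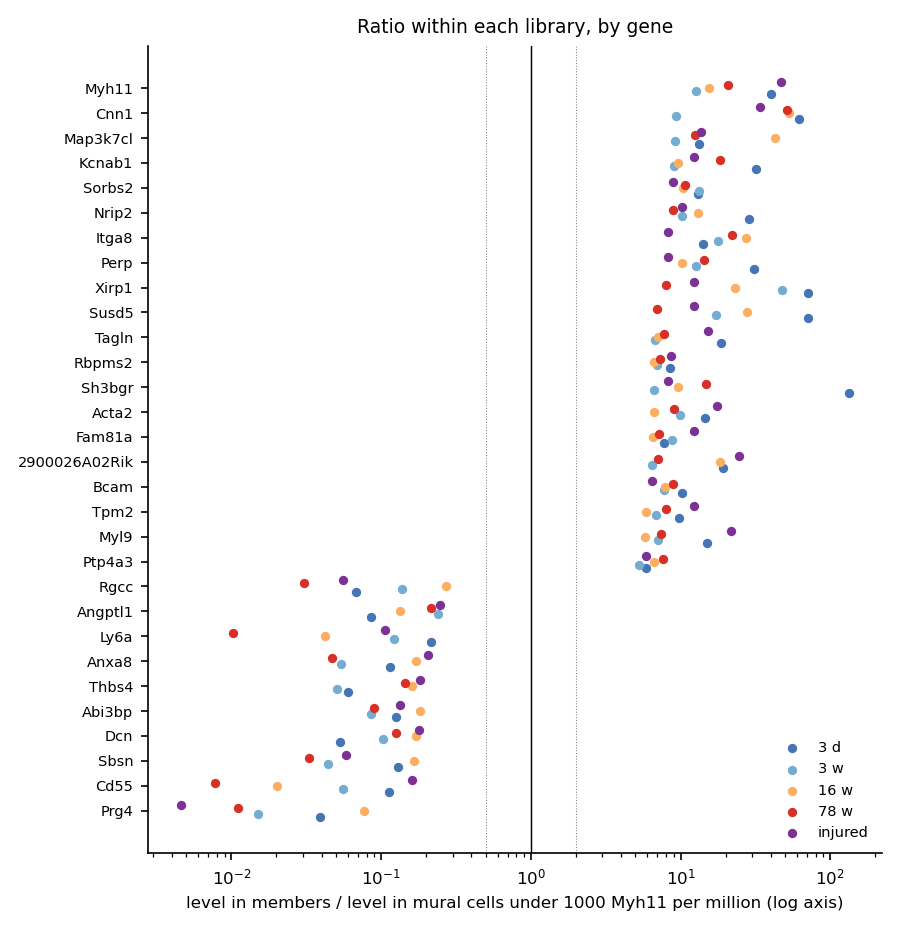
Ratio of the level in members to that in mural cells under 1000 Myh11 CPM (log axis), 1 point per library, for the 20 leading higher and 10 leading lower genes. Dotted lines mark ratios of 2 and 0.5, and the points of each gene lie beyond the dotted line on its side in all 5 libraries, Sorbs2 between 8.96 and 13.3. A count under 3 on the lower side was taken as 3, so at 3 d and in the injured library 1 member UMI could pass 2-fold.

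From 3 d to 3 w, contractile genes of the members differed in both directions. Of 1799 genes with at least 50 UMIs over both sums, 515 (28.6%) were at least 2-fold higher at 3 w and 257 (14.3%) at least 2-fold lower. A difference of 2-fold was thus common here. Counts of any list at an age step, here and below, are to be read against the shares over all genes at that step. Of 25 contractile genes, 3 (Des, Pdlim3 and Synm) were at least 2-fold higher at 3 w and 10 lower, with a median ratio of 0.701 against 1.16 over all genes. Acta2 was 3.205-fold lower (95% interval 3.02 to 3.402), Myl9 2.79-fold lower (2.58 to 3.01) and Cnn1, at 527 in the newborn, 98.8 in the juvenile, 266 in the adult, 208 in the aged and 245 in the injured library, was 5.34-fold lower (3.601 to 7.96). Actg2, the enteric form of smooth muscle actin, stood at 1298 in the newborn, 212 in the juvenile, 142 in the adult, 95.03 in the aged and 88.9 in the injured library and was 6.11-fold lower (4.73 to 7.93). Ppp1r14a, an inhibitor of myosin phosphatase, was 4.09-fold lower (3.13 to 5.33), and Actn1, Nexn, Pdlim7, Smtn and Tpm1 were the other genes past 2-fold. Without the cell with most UMIs of each gene, 2 were higher and 6 lower, Synm, Nexn, Pdlim7, Smtn and Tpm1 being under 2-fold. Des, desmin, the intermediate filament of muscle, went the other way, with levels of 41.9 in the newborn, 563 in the juvenile, 513 in the adult, 591 in the aged and 222 in the injured library, and was 13.5-fold higher (5.696 to 41.8). Thus both smooth muscle actins were highest in newborn members, desmin was lowest there, and Tagln was 1.07-fold lower (1.01 to 1.13) at 3 w.

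At later normal ages the contractile genes differed less. From 3 w to 16 w, 161 of 2997 genes (5.37%) were at least 2-fold higher and 206 (6.87%) lower. The higher ones were thus 43.9% of those past 2-fold, and 54.4% with no upper limit on UMIs, so no balance of directions is read from them. Of 25 contractile genes, 3 were higher (Actn1, Cnn1 and Synpo2) and 0 lower, with a median of 1.42 against 0.990 over all genes. Cnn1 was 2.696-fold higher (1.94 to 3.82), Mylk 1.86-fold higher (1.68 to 2.07), Myh11 1.65-fold higher (1.53 to 1.77) and Acta2 1.57-fold higher (1.49 to 1.64) at 16 w. Myh11 and Acta2 are genes of the rule, and the Myh11 limit cuts the lower end of both libraries. From 16 w to 78 w, 37 of 3588 genes (1.03%) were at least 2-fold higher and 32 (0.892%) lower, and of 25 contractile genes 0 passed in either direction, with a median of 0.964 against 1.01. Myh11 was 1.01-fold higher (0.953 to 1.06), Tagln 1.06-fold higher (1.03 to 1.098) and Acta2 1.12-fold lower (1.08 to 1.16) at 78 w. Of the 3 age steps, this was the one with no contractile gene past 2-fold.

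**Figure D3:**
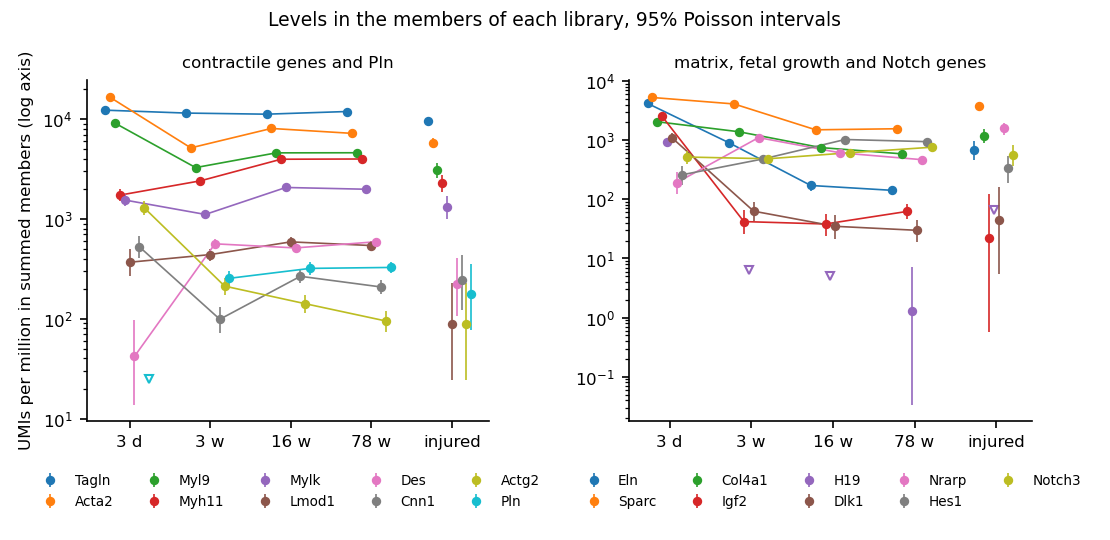
Levels of contractile genes with Pln (left) and of matrix, fetal growth and Notch genes (right) in the summed members of each library, as CPM on a log axis. Bars are exact 95% Poisson intervals, lines join the 4 normal ages, and open triangles mark the level that 3 counts would give where a gene had 0 UMIs, as for Pln at 3 d and H19 at 3 w, 16 w and in the injured library.

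Pln (ENSMUSG00000038583, chr10:53337667-53345987, plus strand), phospholamban, the inhibitor of the calcium pump of the sarcoplasmic reticulum, had 0 UMIs in the 3 d members. Its level was 0 in the newborn, 254 in the juvenile, 319.7 in the adult, 327 in the aged and 178 in the injured library. With 0 UMIs at 3 d, Pln passed the minimum of UMIs for a comparison through 3 w alone. Its ratio of at least 10.1 for 3 w against 3 d is thus a description, and no direction is read from it. A Pln UMI was found in 0 of 21 newborn, 24 of 65 juvenile, 51 of 89 adult, 65 of 127 aged and 6 of 16 injured members. After members were thinned to 2000 UMIs each, leaving out shallower ones, the counts were 0 of 14, 17 of 65, 26 of 88, 46 of 126 and 4 of 11, while thinned stromal cells had 0 of 300 in each library. At 3 d, 0 of 21 members allows a share of members with a captured Pln UMI of up to 16.1% by the exact binomial interval, which does not limit the share that expressed it. Pln was thus read in members of every library but the newborn one. The median depth of members was 7052 UMIs at 3 d and 7218 at 3 w, but 7 of 21 members had under 2000 UMIs at 3 d (lowest 912) against 0 of 65 at 3 w (lowest 2309).

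Few of the other calcium genes passed 2-fold between ages. Of 10 calcium and channel genes measured from 3 d to 3 w, Stim1, the calcium sensor of the reticulum, was at least 2-fold higher. Pln was also counted as higher, through its 3 w UMIs alone, and 0 were lower, with a median of 1.17. Over all genes 28.6% were higher. Of 16 from 3 w to 16 w, Abcc9, a subunit of ATP-sensitive potassium channels, and Mrvi1 were higher and Stim1 lower (median 1.29), and of 17 from 16 w to 78 w none passed (median 0.964). Casq2 stood at 184 in the newborn, 139 in the juvenile, 183 in the adult, 164 in the aged and 156 in the injured library, and so was close to even. Kcnmb1, a subunit of the large-conductance potassium channel, stood at 16.7 in the newborn, 10.5 in the juvenile, 34.96 in the adult, 29.9 in the aged and 44.5 in the injured library.

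Receptors that set vascular tone had few UMIs and no common order over the libraries. Ednrb, an endothelin receptor, stood at 0 in the newborn, 128 in the juvenile, 63.3 in the adult, 24.7 in the aged and 0 in the injured library. Its ratio of at least 5.11 for 3 w against 3 d rests on 3 w UMIs alone, so no direction is read from it. P2rx1, the ATP-gated channel of smooth muscle, stood at 234 in the newborn, 12.6 in the juvenile, 3.33 in the adult, 3.91 in the aged and 88.9 in the injured library, highest in newborn members. Rgs4, which like Rgs5 shortens signalling by G protein-coupled receptors, stood at 83.7 in the newborn, 252 in the juvenile, 529 in the adult, 578 in the aged and 267 in the injured library. Of 10 vasoactive genes from 3 d to 3 w, 3 were counted as higher (Rgs4, S1pr3 and Ednrb), against 28.6% of all genes. Among these, Ednrb counts through its 3 w UMIs alone, and 0 of the 10 were lower (median 1.37). Of 13 from 3 w to 16 w, Rgs4 was higher and Ednrb lower (median 0.976), and of 13 from 16 w to 78 w, Rgs2 was higher and Ednrb lower (median 1.05), of which none stayed past 2-fold without the cell with most UMIs of each gene. Of the serum response factor, myocardin and smooth muscle transcription factor list, 3 of 11 were higher at 3 w than at 3 d, namely Foxc1, Klf4 and Nr4a1, a share close to the 28.6% over all genes. None of 12 passed from 3 w to 16 w, and from 16 w to 78 w 1 of 14 was higher and 1 lower, with medians of 1.09, 0.969 and 0.9604 over the 3 age steps.

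Notch receptor and target genes did not share 1 order. Notch3 (ENSMUSG00000038146, chr17:32120820-32166852, minus strand), the mural receptor and a gene of the rule, stood at 519 in the newborn, 486 in the juvenile, 614 in the adult, 760.3 in the aged and 556 in the injured library. Jag1, its ligand, stood at 176 in the newborn, 254 in the juvenile, 201 in the adult, 155 in the aged and 378 in the injured library. Among targets, Nrarp, a feedback inhibitor of Notch signalling, stood at 193 in the newborn, 1106 in the juvenile, 611 in the adult, 469 in the aged and 1578 in the injured library. Hes1, a repressor, stood at 259.6 in the newborn, 484 in the juvenile, 1027 in the adult, 945 in the aged and 333 in the injured library. Heyl, a repressor found in vascular smooth muscle, stood at 176 in the newborn, 101 in the juvenile, 53.3 in the adult, 67.7 in the aged and 178 in the injured library. Nrarp was lowest in 3 d members and 5.74-fold higher (3.79 to 9.14) at 3 w. Hes1 was 1.86-fold higher (1.28 to 2.81) at 3 w than at 3 d and 2.12-fold higher (1.82 to 2.48) at 16 w than at 3 w, and Heyl was lowest at 16 w and 78 w. Of 7 measured Notch genes, Notch1 and Nrarp were at least 2-fold higher and Dtx3 lower at 3 w than at 3 d (median 1.45). These counts lay near the shares over all genes, 28.6% higher and 14.3% lower, and Dtx3 was under 2-fold without its top cell. Of 11 Notch genes, Hes1 was higher and Hey1 lower at 16 w than at 3 w (median 0.902), against 5.37% and 6.87% of all genes. Of 10, 0 passed from 16 w to 78 w (median 0.897), where Notch3 was 1.24-fold higher (1.08 to 1.41). The letters GTGGGAA, part of the site that the Notch partner RBPJ binds, were searched on both strands in the same promoter windows. They were found in 2 of 17 windows of the 14 Notch genes matched (Hey2 and Lfng), against 6.38% of all windows.

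The study text names Notch3 with Thy1, a surface glycoprotein, and further names Sox9, Comp, Prg4 and Cxcl14 for mural cells. In members Thy1 stood at 25.1 in the newborn, 105 in the juvenile, 53.3 in the adult, 52.1 in the aged and 88.9 in the injured library, from 3 UMIs at 3 d to 50 at 3 w, and 4 in the injured members. Sox9, a chondrogenic transcription factor, stood at 25.1 in the newborn, 14.7 in the juvenile, 44.95 in the adult, 22.1 in the aged and 289 in the injured library, and 10 of its 13 injured UMIs came from 1 cell. Cxcl14, a chemokine, had levels of 0 in the newborn, 2.102 in the juvenile, 6.66 in the adult, 6.51 in the aged and 0 in the injured library, at or near the counting limit in each library.

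Eln, Sparc and Col4a1, genes of the vessel wall matrix, were lower in adult than in young members. Eln (ENSMUSG00000029675, chr5:134702593-134747323, minus strand) stood at 4195 in the newborn, 902 in the juvenile, 171 in the adult, 142 in the aged and 689 in the injured library, with intervals of 3835 to 4579 at 3 d and 117 to 171 at 78 w. Eln was 4.65-fold lower (4.08 to 5.303) at 3 w than at 3 d and again 5.26-fold lower (4.23 to 6.59) at 16 w than at 3 w. Sparc, a collagen-binding protein of basement membranes, stood at 5275 in the newborn, 4102 in the juvenile, 1498 in the adult, 1562 in the aged and 3824 in the injured library. Col4a1, a basement membrane collagen chain, stood at 2051 in the newborn, 1389.7 in the juvenile, 751 in the adult, 587 in the aged and 1200.4 in the injured library. Sparc was 2.74-fold lower (2.53 to 2.97) and Col4a1 1.85-fold lower (1.64 to 2.09) at 16 w than at 3 w, and for all 3 genes the injured members, aged 7 weeks, lay between the 3 w and 16 w levels. Stromal cells, the other matrix-producing cells of the disc, moved likewise from 3 w to 16 w in these genes. Their levels were 1808, 122, 16.1, 9.45 and 110.5 for Eln, 11063, 16891, 1983, 2342 and 13974 for Sparc and 184, 136, 63.4, 72.3 and 80.2 for Col4a1 at 3 d, 3 w, 16 w, 78 w and in the injured library, and there too the injured level lay between those of 3 w and 16 w. Eln and Col4a1 stood above the stroma in members of each library, and Sparc below it in each. The basement membrane list summed in stromal cells to 12587 in the newborn, 18035 in the juvenile, 3041 in the adult, 3415 in the aged and 15136 in the injured library. The elastic fibre list summed there to 6289 in the newborn, 1896 in the juvenile, 1809.7 in the adult, 1634 in the aged and 1518 in the injured library. The part of stromal RNA in the members' levels was not tested. Of 7 elastic fibre genes, 4 were at least 2-fold lower at 16 w than at 3 w (Eln, Fbn1, Lox and Loxl2) and 0 higher, with a median of 0.419. Of 17 basement membrane genes, 4 were lower (Col4a2, Col4a5, Nid1 and Sparc) and 0 higher, with a median of 0.959. In the fibrillar and synthetic list, 3 of 17 were lower and 0 higher (median 0.733). From 3 d to 3 w, 2 were higher and 2 lower of 5 elastic fibre genes, likewise of 16 basement membrane genes, and 3 and 3 of 16 fibrillar genes (medians 1.26, 0.829 and 0.791). These counts were 1 and 1, 2 and 1, and 2 and 0 without the cell with most UMIs of each gene (Fbn1, Loxl2, Hspg2, Col1a2, Fn1, Mgp and Postn lost), and from 3 w to 16 w Col4a2 fell under 2-fold. From 16 w to 78 w none of 8, 17 and 15 genes passed (medians 0.925, 0.958 and 1.03).

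Igf2, H19 and Dlk1, imprinted genes of fetal growth, were highest in newborn members. Igf2, the fetal insulin-like growth factor, stood at 2520.2 in the newborn, 42.05 in the juvenile, 38.3 in the adult, 62.5 in the aged and 22.2 in the injured library and was 59.9-fold lower (38.1 to 99.5) at 3 w. H19, the imprinted RNA next to it, stood at 921 in the newborn, 0 in the juvenile, 0 in the adult, 1.302 in the aged and 0 in the injured library. It was at least 146-fold lower at 3 w, a description, since H19 entered this comparison through its 3 d UMIs alone. Dlk1, a membrane protein of fetal progenitors, stood at 1097 in the newborn, 63.1 in the juvenile, 34.96 in the adult, 29.9 in the aged and 44.5 in the injured library and was 17.4-fold lower (11.6 to 26.8). Meg3, the imprinted RNA of the same locus, stood at 2570.4 in the newborn, 1335 in the juvenile, 534 in the adult, 426 in the aged and 378 in the injured library. The Igf2 level of 3 w members was already close to that of 16 w and 78 w members, whereas Meg3 was lower again at 16 w than at 3 w. Of 6 listed imprinted genes measured from 3 d to 3 w, 3 were lower and 0 higher (median 0.288), of 6 from 3 w to 16 w 1 was lower and 0 higher (median 1.18), and of 7 from 16 w to 78 w 0 passed (median 1.05). The list was also highest at 3 d in other cells, with sums of 9633 in the newborn, 2150.4 in the juvenile, 2489 in the adult, 2113 in the aged and 1564 in the injured library for stromal cells. In mural cells under 1000 Myh11 CPM its sums were 9174 in the newborn, 3059.6 in the juvenile, 1800.2 in the adult, 1224 in the aged and 1124 in the injured library. At 3 d, Igf2, H19 and Dlk1 stood in stromal cells at 1616, 956 and 1005, and free RNA was estimated at 19.3% of the members' UMIs. Its part in these levels was not tested. In the 10 largest ratios in this direction Xist and 4 hemoglobin genes also stood. The hemoglobin UMIs came mainly from 1 of the 21 members, which held 566 of 592 UMIs of Hbb-bs and 334 of 340 of Hba-a1. Hba-a1 and Hba-a2 are near-identical, so the split of reads between them is uncertain. Without that cell Hbb-bs was at 218 CPM.

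Genes of stress and early response were higher in normal members after the newborn age. Fos, a transcription factor induced within minutes of a stimulus, stood at 996 in the newborn, 1617 in the juvenile, 6375 in the adult, 6249 in the aged and 1534 in the injured library. Egr1, another such factor, stood at 343 in the newborn, 692 in the juvenile, 1879.8 in the adult, 1645 in the aged and 178 in the injured library. Socs3, a feedback inhibitor of cytokine signalling, stood at 126 in the newborn, 833 in the juvenile, 1086 in the adult, 1096 in the aged and 66.7 in the injured library. All 3 were highest in adult or aged members. Of 27 immediate early and stress genes, 22 were at least 2-fold higher at 3 w than at 3 d and 0 lower (median 3.17). Of 28, 8 were higher and 2 lower at 16 w than at 3 w (median 1.33), whereas 0 passed from 16 w to 78 w (median 0.995). Fos was 3.94-fold higher (3.65 to 4.27) at 16 w than at 3 w, and Egr1 2.72-fold higher (2.401 to 3.08). In stromal cells of the same libraries the summed level of the list was 8932 in the newborn, 32464 in the juvenile, 38746 in the adult, 28889 in the aged and 17648 in the injured library. In members it was 9989 in the newborn, 32273 in the juvenile, 46108 in the adult, 45777 in the aged and 23652 in the injured library, so the stroma was also lowest at 3 d. The part that such a library-wide difference has in the members' levels was not tested.

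Genes of varied function led the ratios from 3 d to 3 w, beside the chemokine genes given below. Cdkn1a, the inhibitor of cyclin-dependent kinases, stood at 25.1 in the newborn, 1665 in the juvenile, 849 in the adult, 868 in the aged and 822 in the injured library, and with 3 UMIs at 3 d the interval of its ratio was 22.6 to 322. Mt1, a metallothionein, stood at 569 in the newborn, 5555 in the juvenile, 8349.9 in the adult, 7726 in the aged and 5669 in the injured library. The related Mt2 had 1 UMI at 3 d and 580 at 3 w (interval of the ratio 26.04 to 5762). Thbs1, thrombospondin 1, stood at 16.7 in the newborn, 826 in the juvenile, 944 in the adult, 743 in the aged and 378 in the injured library (2 UMIs at 3 d, interval 13.6 to 409). Neat1, a nuclear RNA, was 63.8-fold higher (29.3 to 174) and Ifrd1 34.7-fold higher (14.8 to 107) at 3 w, and Uap1 and Hmox1, heme oxygenase, each with 1 UMI at 3 d, had intervals of 14.05 to 3124 and 9.77 to 2182. In each of these 8 genes the 3 d level was the lowest of the 5 libraries. Mt2, Thbs1, Uap1 and Hmox1, with under 3 UMIs at 3 d, passed the minimum of 50 UMIs through 3 w alone, so for them this is a description. Of 6 interferon response genes, 5 were higher and 0 lower at 3 w than at 3 d (median 2.85). Of 8, 0 were higher and 2 lower at 16 w than at 3 w (median 0.6996), and of 10, 2 were higher and 0 lower at 78 w than at 16 w (median 1.41). The 3 clock genes measured from 3 d to 3 w each had under 3 UMIs at 3 d and passed the minimum of 50 UMIs through 3 w alone, so no direction is read from them. Of 6 clock genes each, 1 was lower from 3 w to 16 w and 0 passed from 16 w to 78 w. Of the growth factor list, 4 of 11, 2 of 16 and 1 of 19 genes were higher and 0, 1 and 0 lower over the 3 age steps. Of the cell cycle list 1 of 4, 0 of 5 and 0 of 5 were higher and none lower. Over all genes 28.6%, 5.37% and 1.03% were higher and 14.3%, 6.87% and 0.892% lower at these steps.

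Chemokine and cytokine genes did not follow age in order. Ccl2, which draws monocytes, stood at 25.1 in the newborn, 519 in the juvenile, 24.97 in the adult, 445 in the aged and 3201 in the injured library. Ccl11, eotaxin, stood at 58.6 in the newborn, 1226 in the juvenile, 66.6 in the adult, 630.1 in the aged and 711 in the injured library. Cxcl1, which draws neutrophils, stood at 712 in the newborn, 3366 in the juvenile, 886 in the adult, 2458 in the aged and 911 in the injured library. Cxcl2, which also draws them, stood at 58.6 in the newborn, 635 in the juvenile, 23.3 in the adult, 681 in the aged and 111 in the injured library. Il6, a cytokine, stood at 33.5 in the newborn, 939.8 in the juvenile, 759 in the adult, 1267 in the aged and 1023 in the injured library. Ccl2, Ccl11, Cxcl1 and Cxcl2 were each lower at 16 w than at 3 w and at 78 w, and Il6 differed less among these 3 ages. In stromal cells the levels at 3 w, 16 w and 78 w were 97.4, 13.9 and 72.4 for Ccl2, 1.74, 0.681 and 1.08 for Ccl11, 579, 282 and 501 for Cxcl1 and 41.2, 12.1 and 68.8 for Cxcl2, also lowest at 16 w and each below the level of members of the same age. In mural cells under 1000 Myh11 CPM the 16 w level lay above that of 78 w for all 4 genes. The part of a library-wide difference in the members' order was not tested. Of the list, 8 of 11 genes were at least 2-fold higher and 0 lower at 3 w than at 3 d (median 6.78). Then 0 of 13 were higher and 6 lower at 16 w than at 3 w (median 0.643), and 6 of 13 were higher and 1 lower at 78 w than at 16 w (median 1.67). Ccl2 was 20.8-fold lower (12.4 to 37.7) at 16 w than at 3 w and 17.8-fold higher (10.7 to 32.2) at 78 w than at 16 w. Ccl11 was 18.4-fold lower (13.4 to 26.03) and then 9.46-fold higher (6.85 to 13.4), and Cxcl2 27.2-fold lower (15.98 to 50.4) and then 29.2-fold higher (17.3 to 53.8). These 2 steps share the 16 w members.

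Ccl2 was found in few adult and aged cells. It had a UMI in 20 of 65 juvenile, 3 of 89 adult, 14 of 127 aged and 6 of 16 injured members. At 3 w, 1 cell held 197 of the 302 UMIs of Cxcl2, and without the cell with most UMIs of a gene in the library of the higher level, Cxcl2 was 9.47-fold lower at 16 w than at 3 w and Ccl2 15.8-fold. At 78 w the cell with most UMIs held 152 of 523 for Cxcl2 and 110 of 342 for Ccl2, and without it they were 20.7-fold and 12.1-fold higher than at 16 w. Among members thinned to 2000 UMIs, genes with the largest variance relative to the mean (Fano factor, median over the libraries that could be read) were Malat1 (20.7), Cxcl2 (18.4), Mt1 (17.05), Ccl2 (15.8), Ccl11 (15.4) and Rgs5 (12.8). Gm42418, Cxcl1, Gadd45b, Tmsb4x, Fos, Il6, Hspa1b, Gadd45g and Tagln followed, down to 7.89 for Tagln. Cxcl2, Ccl2 and Ccl11 could be read in 3 libraries only (3 w, 78 w and injured), and Il6 in 4. The Cxcl2 values ran from 1.8 in the injured library to 33.7 at 78 w. Independent Poisson counting would give a Fano factor of 1.

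Other genes led the ratios between the later ages. At 16 w, Fmod (fibromodulin, a collagen-binding proteoglycan) was 5.36-fold higher (3.204 to 9.51) and Clu (clusterin, a chaperone) 4.598-fold higher (3.13 to 6.97) than at 3 w, and Ndufa4, a subunit of the respiratory chain, was 3.38-fold higher (2.35 to 4.98). Fmod is a gene of fibrous stroma and stood at 134 in the newborn, 35.7 in the juvenile, 191 in the adult, 141 in the aged and 245 in the injured library. Procr was 4.74-fold lower (4.104 to 5.502) at 16 w than at 3 w, Rgs16, another regulator of G protein signalling, 3.88-fold lower (3.02 to 5.03), and Nts, the neurotensin precursor, 28.2-fold lower (12.6 to 78.2). Of the 134 Nts UMIs at 3 w, 51 came from 1 cell. From 16 w to 78 w the leading genes other than chemokines were Erdr1, at 4.803-fold higher (3.21 to 7.44), Hist1h1c, a linker histone, at 3.25-fold higher (2.09 to 5.25), and Rgs2, a further regulator of G protein signalling, at 2.38-fold higher (1.69 to 3.41), with 44 of its 137 UMIs in 1 cell and 1.62-fold without it. Lower at 78 w were Kcnq1ot1, an imprinted antisense RNA, at 3.78-fold lower (2.68 to 5.43), or 1.99-fold without the cell with most UMIs, Lmcd1, a muscle LIM protein, at 2.105-fold lower (1.58 to 2.82), and Neat1 at 2.08-fold lower (1.86 to 2.33), and without that cell Lmcd1 was 1.76-fold and Neat1 1.84-fold lower. Ndufc1, Ost4, Lbh, Rbbp6 and Eif4a1 complete the leading genes from 3 w to 16 w, and Gm26870, Ogn, Nop58, Prg4, Nov, Fst, Lars2, Sap18 and Hspa2 those from 16 w to 78 w.

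Rgs5 (ENSMUSG00000026678, chr1:169655501-169695813, plus strand), a regulator of G protein signalling known from pericytes, divided the members. Its level over all members was 2587 in the newborn, 4278 in the juvenile, 3252 in the adult, 3943 in the aged and 2668 in the injured library. Members with 0 Rgs5 UMIs, which pass the rule through Notch3 alone, numbered 0 in the newborn, 4 in the juvenile, 21 in the adult, 59 in the aged and 5 in the injured library. In the same order their share was 0%, 6.15% (1.702 to 15.01), 23.6% (15.2 to 33.8), 46.5% (37.6 to 55.5) and 31.2% (11.02 to 58.7). Members with 5 or more Rgs5 UMIs numbered 14 in the newborn, 49 in the juvenile, 46 in the adult, 57 in the aged and 8 in the injured library, and those with 1 to 4 numbered 7, 12, 22, 11 and 3. At full depth the share without Rgs5 was higher at each later normal age. In members thinned as for Pln, an Rgs5 UMI was found in 12 of 14 newborn and 54 of 65 juvenile ones. These were 85.7% (57.2 to 98.2) and 83.1% (71.7 to 91.2). In adult and aged ones it was found in 53 of 88 and 65 of 126, or 60.2% (49.2 to 70.5) and 51.6% (42.5 to 60.6). The order of ages was thus the same after thinning, but the newborn and juvenile intervals overlapped, as did the adult and aged ones. The rule uses Rgs5 and Notch3, and a member with 0 Rgs5 UMIs needs at least 2 of Notch3, so this order is a description. Median UMIs were 7051 without Rgs5 and 6410 with 5 or more at 16 w, and 6078 and 6022 at 78 w.

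The 16 w and 78 w libraries, which share no cells of the comparison, held enough of both kinds to be read apart. This split was chosen after the data were seen, and Notch3 and Rgs5 themselves are not results of it. Of 1713 genes with at least 100 UMIs over the 4 groups of cells, 59 (3.44%) were at least 2-fold higher in members without Rgs5 at both ages, 70 (4.09%) were at least 2-fold lower at both, and 0 were past 2-fold in opposite directions. Both log ratios lay on the same side for 1162 genes, and over these 1713 genes, which are not independent, Pearson's r of the 2 log ratios was 0.626 as a description. Crispld2, a secreted protein, had levels without Rgs5 and with 5 or more of 4872 against 651 at 16 w and 3333 against 524 at 78 w, ratios of 7.48 and 6.36. Mt1 had 17372 against 2933 at 16 w and 12224 against 2459.9 at 78 w, and Nrarp, the Notch target, had 1348 against 214 at 16 w and 708 against 191 at 78 w, ratios of 6.31 and 3.71. Hmox1 was 16.2 and 6.24 times, S1pr3, a sphingosine phosphate receptor, 3.95 and 6.15 times and Irs2, an insulin receptor substrate, 3.92 and 4.53 times as high in members without Rgs5 at 16 w and 78 w. Of the Hmox1 UMIs without Rgs5, 1 cell held 42 of 65 at 16 w and 66 of 167 at 78 w, and without it the ratios were 5.75 and 3.77. Pln was also higher on this side, with 526 against 224 at 16 w and 468 against 185 at 78 w, or 1.82-fold and 2.34-fold without the cell with most UMIs. Over all genes, 39 of the 59 higher and 47 of the 70 lower kept 2-fold at both ages without that cell, an alternative added after seeing the data. Of the 5 measured Notch genes Nrarp alone passed at both ages. Stromal genes differed across the same split at 16 w. The 3 measured genes of a list taken as absent from smooth muscle cells had median ratios of 5.47 at 16 w and 1.05 at 78 w, and 8 stromal markers 2.06 and 0.576. Prg4, lubricin, had 1387 against 98.7 at 16 w and 219 against 208 at 78 w, and Dcn, decorin, 1407 against 398 at 16 w and 576 against 938 at 78 w, so both were higher without Rgs5 by more than 2-fold at 16 w only. Stromal cells had Crispld2 at 306 and 279, below members of either side, Mt1 at 5312 and 3880.5, between them, and Nrarp at 0.445 and 0.495. The part of stromal RNA in the split was not tested.

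Several pericyte, matrix and chemokine genes were higher in members with Rgs5. Of 11 pericyte genes, Rgs5 left out, 4 (Abcc9, Higd1b, Steap4 and Vtn) were at least 2-fold lower without Rgs5 at both ages and 1 (Gm13889) higher, with medians of 0.4399 and 0.725 against 0.925 and 0.985 over all genes. Vtn, vitronectin, had levels without Rgs5 and with 5 or more of 46.03 against 335 at 16 w and 10.8 against 402 at 78 w, and Steap4, a metalloreductase, of 26.3 against 247 at 16 w and 18.9 against 298 at 78 w. Of 15 fibrillar collagen and synthetic genes 7 were lower without Rgs5 at both ages (Col3a1, Col6a1, Col6a2, Mgp, Postn, S100a4 and Tpm4) and 0 higher. Of 9 chemokine and cytokine genes 6 were lower (Ccl11, Ccl2, Cxcl1, Cxcl10, Cxcl12 and Il34) and 0 higher, with medians of 0.3999 and 0.0863. Without the cell with most UMIs of a gene on its higher side, Ccl11, Cxcl12 and Il34 kept the 2-fold difference at both ages. At 16 w, Cxcl1 was then 1.46-fold lower without Rgs5, the 2 UMIs of Ccl2 that were left with Rgs5 gave no fold, and Cxcl10, with 57 of its 70 UMIs in 1 cell, turned direction (ratio 1.54). Mgp and S100a4 of the fibrillar list (1.86-fold and 1.66-fold lower at 16 w) and Gm13889 (1.98-fold higher at 78 w) also fell under 2-fold. Of 25 contractile genes, Smtn alone was past 2-fold at both ages, on the side without Rgs5 (1.52-fold at 16 w without that cell), and their medians were 1.25 and 1.72.

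**Figure D4:**
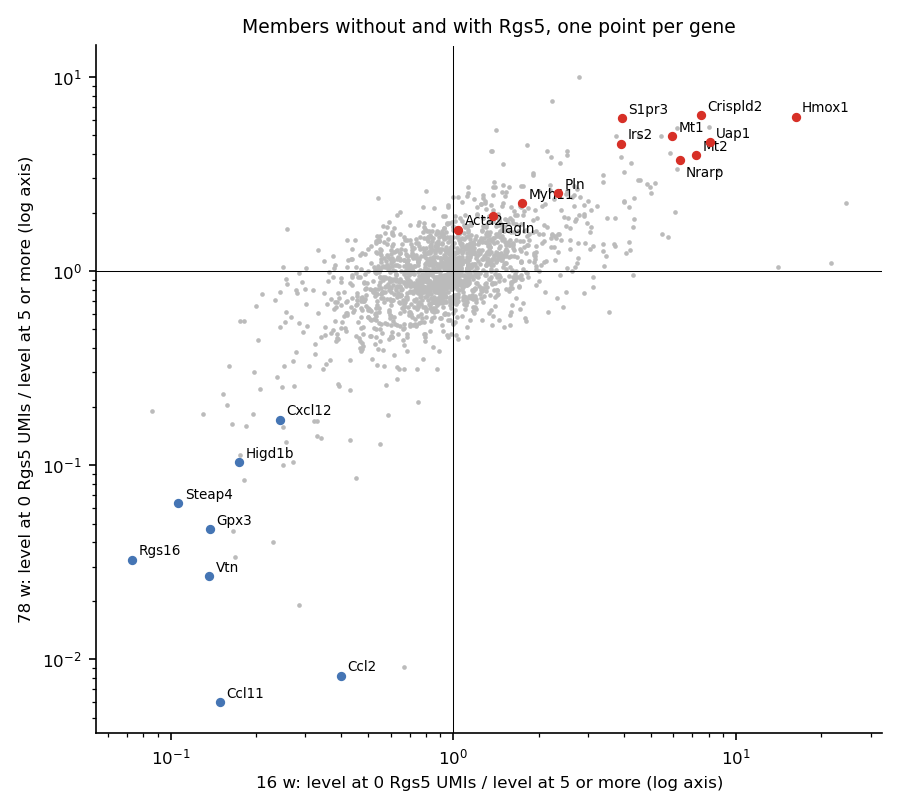
Ratio of the level in members with 0 Rgs5 UMIs to that in members with 5 or more, at 16 w (x axis) and 78 w (y axis), both log axes, 1 point per gene with at least 100 UMIs. Crispld2, Mt1, Hmox1 and Nrarp lie in the upper right with both ratios above 2, and Ccl2, Ccl11, Vtn and Steap4 in the lower left with both under 0.5. Ccl2 and Ccl11 passed the minimum almost only through members with Rgs5.

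By library, Ccl2 had 0 UMIs in members without Rgs5 at 3 w and 16 w, a level of 5.41 at 78 w and 0 UMIs in the injured library. In members with 5 or more Rgs5 UMIs it was at 659 at 3 w, 49.3 at 16 w, 984 at 78 w and 3947 in the injured library. Ccl11 was at 0, 0, 2.703 and 161 without Rgs5 and at 1558, 132, 1349 and 1431 with it, in the same order. The lower levels of both genes at 16 w than at 3 w and 78 w were thus also seen among members with 5 or more Rgs5 UMIs. Cxcl1 was lower without Rgs5 at the 3 normal ages that held such members, with 282 against 4081 at 3 w, 506 against 1121 at 16 w and 429.8 against 4981 at 78 w. Il6 had levels of 1606 against 978 at 3 w, 2130.4 against 98.7 at 16 w and 1316 against 1192 at 78 w. All 57 Il6 UMIs without Rgs5 at 3 w came from 1 of 4 cells, so no order is read there. At 16 w Il6 stayed higher without Rgs5 when the cell with most Il6 UMIs of that side was left out (1618), and at 78 w the level of 1141 then lay below that with Rgs5.

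**Figure D5:**
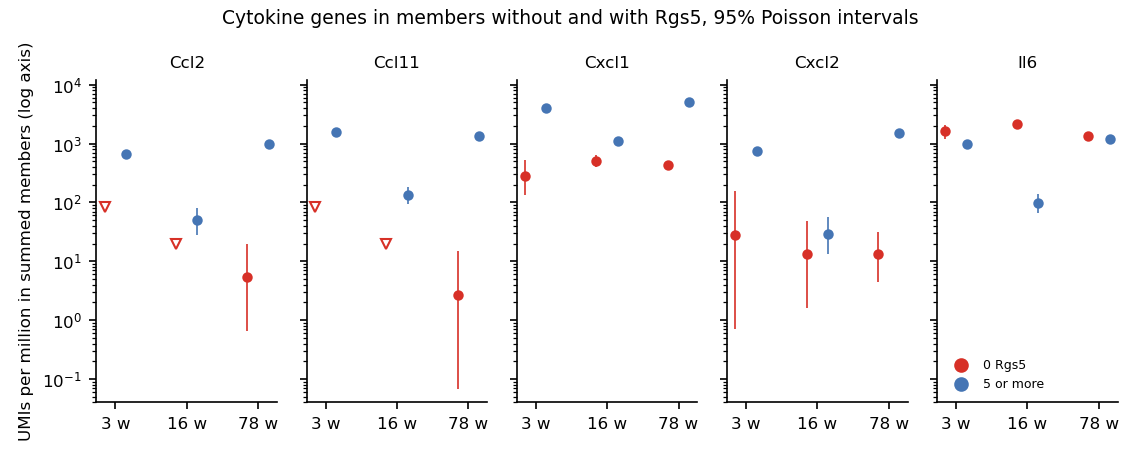
Levels of Ccl2, Ccl11, Cxcl1, Cxcl2 and Il6 (CPM, log axis) in summed members with 0 Rgs5 UMIs (red) and with 5 or more (blue) at 3 w, 16 w and 78 w, with exact 95% Poisson intervals. Open triangles mark the level that 3 counts would give where there were 0 UMIs, and the blue points of Ccl2, Ccl11 and Cxcl1 lie above the red ones at each age, while the red point of Il6 at 3 w rests on 1 cell.

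Injured members, 16 cells with 44985 UMIs, were set against 16 w and 3 w members, the normal ages on either side of 7 weeks. The injured library enters both comparisons, and a gene is described as differing where both go the same way. Of 1865 genes, 149 (7.99%) were at least 2-fold higher and 185 (9.92%) lower than at 16 w, and of 1565 genes, 140 (8.95%) were higher and 258 (16.5%) lower than at 3 w. The median ratio over all genes was 0.875 against 16 w and 0.865 against 3 w, or -0.19 and -0.21 on the log2 scale, and the log2 median was 0.21 for 3 w against 3 d, so ratios are best read relative to these shifts. The share of the genes past 2-fold that were higher in injured members was 44.6% and 35.2%, and 63.7% and 55.0% after scaling by the median ratio. Cytosolic ribosomal protein genes had median ratios of 1.47 and 1.37, and Rpl6, Rps28, Rpl41, Rpl39, Rpl37, Rpl38 and Rpl35 were among the 10 largest ratios of 1 or both comparisons.

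Of genes with 100 or more UMIs in the higher library, Ccl2 had the largest ratio to 16 w members. It was 128-fold higher (75.2 to 235) than at 16 w and 6.16-fold higher (4.98 to 7.601) than at 3 w, with 64 of its 144 UMIs in 1 of the 6 injured members that carried it, and without that cell 71.2-fold and 3.42-fold. Col1a1, the main fibrillar collagen, stood at 494 in the newborn, 252 in the juvenile, 185 in the adult, 169 in the aged and 4290.3 in the injured library. It was 23.2-fold higher (18.3 to 29.6) and 17.01-fold higher (13.5 to 21.5), with 116 of 193 UMIs in 1 cell and 9.26-fold and 6.78-fold without it. All 16 injured members had a Col1a1 UMI, against 17 of 21 newborn, 41 of 65 juvenile, 39 of 89 adult and 60 of 127 aged members. In stromal cells Col1a1 stood at 9853 in the newborn, 7889 in the juvenile, 813 in the adult, 755 in the aged and 23539 in the injured library. After an estimate of free RNA was subtracted, Col1a1 was 18.3-fold and 19.1-fold higher in injured than in 16 w and 3 w members. With the Myh11 limit at 2000 CPM it was 8.13-fold and 9.08-fold higher, and with no upper limit on UMIs 14.2-fold and 6.65-fold. Spry2, a feedback inhibitor of growth factor receptors, stood at 8.37 in the newborn, 168 in the juvenile, 59.9 in the adult, 63.8 in the aged and 1489 in the injured library. It was 24.8-fold higher (16.3 to 38.4) than at 16 w and 8.86-fold higher (6.303 to 12.4) than at 3 w. Procr, the protein C receptor, stood at 335 in the newborn, 1856 in the juvenile, 391 in the adult, 625 in the aged and 3601 in the injured library and was 9.204-fold higher (7.49 to 11.3) and 1.94-fold higher (1.63 to 2.296). Gm26870 was 16.4-fold higher (12.7 to 21.2) and 13.997-fold higher (10.8 to 18.2), but 116 of its 139 UMIs came from 1 cell. Ccl2, Col1a1, Spry2 and Procr were thus higher than at either normal age, Procr by less than 2-fold against 3 w.

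Some contractile and early response genes were lower in injured members. Lmod1 was 6.63-fold lower (2.57 to 24.5) than at 16 w and 4.94-fold lower (1.902 to 18.3) than at 3 w, on 4 UMIs. Of 25 contractile genes 0 were higher and 5 lower than at 16 w (Des, Lmod1, Nexn, Pdlim3 and Synpo2; median 0.667), and of 24, 2 were higher (Actn1 and Cnn1) and 4 lower (Actg2, Des, Lmod1 and Pdlim3; median 0.944) than at 3 w. Over all genes 9.92% were lower than at 16 w, and 8.95% were higher and 16.5% lower than at 3 w, so the contractile counts against 3 w lay near the shares over all genes. Without the cell with most UMIs of each gene, Nexn, Actn1, Cnn1 and Actg2 fell under 2-fold. Des, Lmod1 and Pdlim3 were lower in both. Myh11 was 1.73-fold lower (1.42 to 2.13) than at 16 w and 1.05-fold lower (0.8603 to 1.301) than at 3 w, and Acta2 1.397-fold lower (1.23 to 1.59) and 1.12-fold higher (0.982 to 1.27), given as a description since the rule used both genes. Egr1 was 10.6-fold lower (5.35 to 24.5) and 3.89-fold lower (1.95 to 9.08), and Socs3, with 3 UMIs in the injured members, had intervals of 5.55 to 79.1 and 4.24 to 60.8 for how much lower it was. Of 27 immediate early and stress genes, 2 were higher and 14 lower than at 16 w (median 0.457), and 1 higher and 10 lower than at 3 w (median 0.571). At 3 w, 16 w and in the injured library the list summed to 32464, 38746 and 17648 CPM in stromal cells. In mural cells under 1000 Myh11 CPM it summed to 27409, 41695 and 18407, so both were also lowest in the injured library. The part of such a library-wide difference in the members' levels was not tested. Among the leading lower genes of 1 or both comparisons were also Ctgf, Fst, Btg2, Oat, Fabp4, Srsf5, S1pr3, Cxcl2, Gm42418 and AY036118, and Ftl1 and Hspa1b were among the higher. Gucy1b3, a subunit of the nitric oxide receptor, stood at 243 in the newborn, 263 in the juvenile, 256 in the adult, 293 in the aged and 22.2 in the injured library. It had 1 UMI in the injured members and intervals of 2.04 to 459 and 2.08 to 471.

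Of the Notch genes, Nrarp was 2.58-fold higher (1.97 to 3.34) in injured members than at 16 w and 1.43-fold higher (1.098 to 1.83) than at 3 w, and Hes1 was 3.08-fold lower (1.85 to 5.54) and 1.45-fold lower (0.861 to 2.63). Of 6 Notch genes, 2 were higher (Notch2 and Nrarp) and 1 lower (Hes1) than at 16 w (median 1.74), and of 7, 1 was higher and 0 lower than at 3 w (median 1.43). Of the fibrillar and synthetic list, 5 of 13 were higher and 1 lower than at 16 w (median 1.68), and 5 of 14 higher and 1 lower than at 3 w (median 1.396). Without the cell with most UMIs of each gene, 2 and 1 were higher, and Col3a1 and Fn1 were among those that fell under 2-fold in both comparisons. Of the chemokine list, 2 of 8 were higher and 1 lower, and 2 of 11 higher and 4 lower. Without the same cell these counts were 2 and 0 against 16 w (Cxcl10 lost) and 1 and 2 against 3 w (Ccl7, Cxcl2 and Cxcl9 lost).

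Counts of the remaining lists in injured members are to be read against the shares over all genes, 7.99% higher and 9.92% lower than at 16 w and 8.95% and 16.5% than at 3 w. Of 12 calcium and channel genes measured against 16 w, 0 were higher and 1 lower, and of 9 against 3 w, 0 and 0. The vasoactive list had 0 higher and 3 lower of 9 against 16 w, and 0 and 2 of 10 against 3 w. Of 11 smooth muscle transcription factor genes measured against 16 w, 1 was higher and 0 lower, and of 9 against 3 w, 0 and 1. The pericyte list had 1 higher and 3 lower of 12 against 16 w, and 2 and 2 of 9 against 3 w. Among elastic fibre genes, 1 of 3 was higher and 0 lower than at 16 w, and 0 of 5 higher and 0 lower than at 3 w. Of 14 basement membrane genes measured against 16 w, 2 were higher and 2 lower, and of 15 against 3 w, 0 and 0. In the vasoactive and pericyte lists the share lower than at 16 w thus lay above that over all genes, on 3 genes each. On 1 or 2 genes each it also did in the basement membrane list. The same holds for the progenitor, interferon response, cell cycle and imprinted lists given next. Without the cell with most UMIs of each gene, the pericyte list had 1 higher and 1 lower than at 16 w and 0 higher and 1 lower than at 3 w. The progenitor list had 1 higher and 2 lower of 10 against 16 w, and 1 and 0 of 11 against 3 w. Among interferon response genes, 0 of 6 were higher and 1 lower than at 16 w, and 1 of 7 higher and 2 lower than at 3 w. Of 12 growth factor genes measured against 16 w, 1 was higher and 1 lower, and of 10 against 3 w, 1 and 1. The cell cycle list had 0 higher and 1 lower of 4 against 16 w, and 0 and 2 of 4 against 3 w. Among imprinted genes, 0 of 4 were higher and 1 lower than at 16 w, and 0 of 2 higher and 2 lower than at 3 w. Of 4 clock genes measured against 16 w, 1 was higher and 0 lower, and of 4 against 3 w, 0 and 0. At the normal ages, the pericyte list had 4 of 9, 2 of 13 and 0 of 14 higher and 0 lower over the 3 age steps (medians 1.65, 1.04 and 1.03). The progenitor list had 2 higher and 2 lower of 12 at the first step and 0 of 13 and 12 at the later ones. At these age steps 28.6%, 5.37% and 1.03% of all genes were higher and 14.3%, 6.87% and 0.892% lower. Leaving out the cell with most UMIs of each gene also put Egr1, B2m, Cox4i2 and Dtx3 under 2-fold from 3 d to 3 w. From 3 w to 16 w, Actn1, Mrvi1, Btg2, Hspa1a and Gbp2 were, and from 16 w to 78 w, Foxc2, Myocd, Vegfb, Ccl7 and Cxcl10, which left 4 of the 13 chemokine genes higher. In injured members Klf4, Cdkn1c, Cited2, Col4a2 and Itga8 were against 16 w. Against 3 w, Foxs1, Dtx3, Cited2, Ifitm3, Isg15, Cdkn1a, Ctgf, Klf2 and Myc were, which left 7 of the 27 early and stress genes lower.

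Summed levels of markers of other cell types are given in CPM. The 12 endothelial markers summed to 318 in the newborn, 238 in the juvenile, 206 in the adult, 176 in the aged and 178 in the injured library. Of them 8, 8, 7, 3 and 10 were at 0, Cdh5 by the rule, and Esam, an adhesion protein that mural cells also carry, was the most abundant in each library. Pecam1, a defining endothelial gene, had 0, 0, 1, 2 and 0 UMIs. The 12 leukocyte markers summed to 58.6 in the newborn, 10.5 in the juvenile, 13.3 in the adult, 27.3 in the aged and 0 in the injured library. Of them 6, 9, 8, 4 and 12 were at 0, and the sums were led by C1qa at 3 d, Fcer1g at 3 w and Lyz2 at 16 w and 78 w. Ptprc, which defines leukocytes, had 0, 0, 0, 1 and 0 UMIs. The 16 skeletal muscle markers summed to 184 in the newborn, 27.3 in the juvenile, 46.6 in the adult, 37.8 in the aged and 0 in the injured library. They were led by Acta1 at 3 d, Tnnt1 at 3 w and Myl1 at 16 w and 78 w. The 12 Schwann cell markers summed to 594 in the newborn, 713 in the juvenile, 589 in the adult, 625 in the aged and 600.2 in the injured library. They were led by Cryab, a heat shock protein also known from muscle, at 3 d, 16 w and 78 w and by Pmp22 at 3 w and in the injured library. Sox10, which defines Schwann cells, had 0 UMIs in members of each library. The chondrocyte markers summed to 151 in the newborn, 25.2 in the juvenile, 48.3 in the adult, 31.2 in the aged and 356 in the injured library, led by Acan at 3 d and by Sox9 in the other libraries. Erythroid genes summed to 10432 in the newborn, 0 in the juvenile, 8.32 in the adult, 9.11 in the aged and 22.2 in the injured library, with the 3 d sum set mainly by the 1 cell named above. No gene of the leukocyte, skeletal muscle and chondrocyte lists had enough UMIs to be compared. From 3 d to 3 w all 4 erythroid genes measured were lower and 1 of 2 Schwann cell genes was higher, and the 1 or 2 endothelial genes measured in a comparison did not pass 2-fold.

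Stromal markers in members differed with condition. In CPM, the 18 stromal markers summed in members to 3274 in the newborn, 1785 in the juvenile, 2844 in the adult, 2484 in the aged and 10270.1 in the injured library. In stromal cells they summed to 33646 in the newborn, 56499 in the juvenile, 52886 in the adult, 60114 in the aged and 67769.7 in the injured library. Members had Col3a1 as the most abundant at 3 d and 3 w, Dcn at 16 w and 78 w and Col1a1 in the injured library, and 7, 2, 1, 1 and 4 of them at 0. The list had 2 of 5 lower at 3 w than at 3 d, 5 of 9 higher at 16 w than at 3 w, and 1 of 11 higher and 1 lower at 78 w than at 16 w. In injured members it had 3 of 8 higher and 1 lower than at 16 w, and 4 of 4 higher than at 3 w. Leaving out the cell with most UMIs of each gene, 2 were higher and 0 lower than at 16 w and 2 of 4 higher than at 3 w, Col1a2 and Col3a1 being under 2-fold. Col1a2 from 3 d to 3 w and Dpt and Prg4 from 16 w to 78 w were also under 2-fold without it. Prg4, lubricin, stood at 25.1 in the newborn, 37.8 in the juvenile, 441 in the adult, 219 in the aged and 133 in the injured library. It was 11.7-fold higher (7.23 to 19.98) at 16 w than at 3 w, with 107 of its 265 UMIs at 16 w in 1 cell. Dcn was 7.42-fold higher (5.51 to 10.2), and Comp, a cartilage matrix protein at 0 in the newborn, 42.05 in the juvenile, 205 in the adult, 229 in the aged and 245 in the injured library, was 4.87-fold higher (3.02 to 8.25). The 12 genes taken as absent from smooth muscle cells summed to 586 in the newborn, 175 in the juvenile, 1091 in the adult, 785 in the aged and 1000.3 in the injured library in members. Over all retained cells they summed to 584 in the newborn, 12411 in the juvenile, 19504 in the adult, 26336 in the aged and 14882 in the injured library. At each age but 3 d, and in the injured library, these 12 genes thus summed to less in members than over all retained cells. Of the 12, 1 of 1 measured gene was lower at 3 w than at 3 d, 4 of 4 were higher at 16 w than at 3 w, and 1 of 6 and 1 of 4, in both Prg4, were lower at 78 w and in injured members than at 16 w, and under 2-fold without its top cell. Members with at most 500 Dcn CPM, a choice made after seeing the data, numbered 65 of 65 at 3 w and 55 of 89 at 16 w. Among them Prg4 was 2.25-fold and Comp 2.46-fold higher at 16 w than at 3 w. With free RNA, estimated from genes among the 12, subtracted the ratios were 25.6-fold for Dcn, 13.2-fold for Comp and 19.9-fold for Prg4. They rest on few 3 w counts, which were 48 UMIs of Dcn, 20 of Comp and 18 of Prg4 before subtraction. The part of stromal RNA in these levels was not tested. Comp and Prg4 are themselves among the 12, and Dcn is not.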

How the data were processed

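Disc cells of 5 libraries, 1 per condition, were read by droplet 3′ sequencing after digestion with pronase and collagenase. The authors deposited 1 filtered matrix of UMI counts per library, made against mm10 (27998 genes) with Cell Ranger, version 3.1 by the submitters' processing notes and 4.0.0 in the file headers. Counts were used as deposited, and samples were grouped by their labels. The members, the gene lists and the alternatives were chosen with earlier results of these data known.

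Cells with at most 30% mitochondrial UMIs and 12000 UMIs were retained. No doublet caller was run, and the upper limit on UMIs and the requirement of 0 Cdh5 and Tyrobp UMIs stood in its place. Stromal cells were retained cells with at least 2 Col1a2 UMIs and 0 of Rgs5, Notch3, Myh11, Cdh5 and Tyrobp. Counts were summed over members of a library, levels were set as counts per 1000000 of that sum (CPM), and genes with at least 50 UMIs over the 2 sums were compared. Ratios carry exact conditional intervals, levels exact Poisson intervals and shares Clopper-Pearson intervals, all at 95%. No p-value was computed. A count of 0 was read as up to 3 counts, and a count under 3 on the lower side of a ratio was set to 3. Such a gene passed the minimum of 50 UMIs through the other library almost alone, and the counts of lists include such genes. The ratio step was tested on simulated data. Free RNA was estimated per library from a list of 12 genes taken as absent from smooth muscle cells. The estimate was a median over those of the 12 that reached a minimum level in the library. It came to 19.3, 0.772, 2.29, 2.44 and 6.105% of the members' UMIs at 3 d, 3 w, 16 w, 78 w and in the injured library. Whether smooth muscle cells lack these genes was not tested, and the paper names Comp and Prg4 for mural cells. Cells were thinned to 2000 UMIs for the variances, for the shares named as thinned and in 1 alternative. All other shares were counted at full depth, which differed among libraries.

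Named genes were those of the rule, up to 5 of each list, for each comparison the 10 highest and 10 lowest ratios (100 or more UMIs in the higher library), the 20 and 10 leading genes of the class, 15 genes by Fano factor and those that the study text gives for mural cells. Some genes that this rule names, and a list, are not reported here. Positions and promoters are those of GRCm38 and RefSeq (GRCm38.p6). Alternatives changed the UMI, Myh11 and mitochondrial limits, the minimum of UMIs, the scaling, the weight of cells and the treatment of free RNA, and those added after seeing the data left out the top cell of each gene, a library or members by their Rgs5 or Dcn. Python 3.11.15, numpy 2.4.6, scipy 1.17.1, pandas 2.3.3 and matplotlib 3.10.9 were used.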

Additional observations from a re-analysis of the deposited data

Results flagged for a closer look

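Xist, read over all retained cells, stood at 658 CPM in the injured library, against 0.0879, 0.369 and 0.124 in the male libraries of 3 w, 16 w and 78 w. It was noted because it lies above the level of those libraries over all retained cells, a measure that no comparison of members used. Among members themselves Xist entered the comparison of 3 w with 3 d. Ddx3y, on the Y chromosome, was at 0 in the injured library. With 1 library per condition no library could be tested against others of its group.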

How the results depend on the processing

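No paired analysis was possible because each condition was 1 library and no replicate number links libraries. The share of mural cells that were members was 7.84%, 38.5%, 56.6% and 61.0% in newborn, juvenile, adult and aged discs with the Myh11 limit at 500 CPM. With that limit at 2000 it was 1.48%, 15.9%, 36.5%, 37.3% and, in the injured library, 4.67%. After thinning to 2000 UMIs it was 6.78% at 3 d and 23.8% at 3 w, and with no upper limit on UMIs 35.6% at 78 w. In the last case the 78 w share lay below that of 16 w, whereas under each of the other alternatives it lay above. The percentage of genes past 2-fold from 3 w to 16 w was 18.8% (12.2% as reported) among members with at least 5 Rgs5 UMIs. From 16 w to 78 w (1.92% as reported, 69 genes) it was 5.77% (369 genes) with a minimum of 20 UMIs, 1.12% (11 genes) with 200, 0.948% (34 genes) without the cell with most UMIs of each gene and 3.41% with at least 5 Rgs5 UMIs. Without that cell it was 11.5% (214 genes, 334 as reported) for injured against 16 w members and 16.7% (261 genes, 398 as reported) against 3 w. With a minimum of 20 UMIs these 2 comparisons had 595 and 611 genes past 2-fold. Of the 140 genes higher and 54 lower in members than in the other mural cells in every library, the counts became 93 and 20 with Myh11 at 2000, 93 and 14 against mural cells with at least 3 Rgs5 and 0 Pdgfra UMIs, 219 higher with no upper limit on UMIs and 103 lower without the injured library. Of the genes past 2-fold, the percentage that were higher moved by over 10 points under some alternatives. From 16 w to 78 w (53.6% as reported) it reached 71.6% with at least 5 Rgs5 UMIs. For injured against 16 w members (44.6%) it lay between 31.3% without the cell with most UMIs and 68.9% with a minimum of 20 UMIs, and against 3 w (35.2%) between 23.4% and 57.8%. Of 1116 values of named genes under alternatives, 897 lay within the reported interval, 219 did not, and of those past 2-fold 0 turned direction. The minima of 20 and 200 UMIs, with 101 values each, leave the ratio of a gene as it is. Their values thus had to lie within the reported interval. With Myh11 at 2000, 50 of 101 lay outside it, and among members with at most 500 Dcn CPM 21 of 39. The cause was not tested. Depth limits the 3 d and injured members most, with 21 and 16 cells, so genes of low level could not be compared there.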
